A study of Arabidopsis thaliana with 4 samples.

Results

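AT2G37870 and AT4G33550 are 2 Arabidopsis thaliana genes for secreted proteins of the lipid-transfer protein superfamily. They were chosen by their gene identity and selected on their measured increase with abscisic acid (ABA), each through the array probe set annotated to that locus alone, and they are 2 of 13356 genes with a named probe set on the arrays. The choice used the ABA contrast of both genotypes, so the size of their increase with ABA is given here as a description and without a test.

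Lipid-transfer proteins are small proteins exported to the cell wall. Conserved cysteines pair into disulphide bridges that hold a bundle of helices around a hydrophobic cavity, which can take up fatty acids and other lipids. Members of the superfamily are known for the supply of waxes and cutin to the plant surface, for defence signalling and for induction under drought, and the same fold occurs in storage albumins of seeds. ABA, the hormone of drought and seed dormancy, acts through soluble receptors that block a class of phosphatases and so release protein kinases, which activate transcription factors of stress genes.

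The material was whole plants of 10 days, 10 plants pooled per RNA sample, grown at 21 °C with 16 h of light and 8 h of dark on agar with Murashige and Skoog medium. There were 4 groups of 1 Affymetrix ATH1 array each: the line labelled gpa1 with 100 µM ABA for 3 h, gpa1 without ABA, the wild type Wassilewskija (WS, stock N1601) with the same ABA treatment, and WS without ABA. Both genotypes carry the ecotype label ws-2, and gpa1 (stock N3911) is labelled with a T-DNA insertion at the locus At3g26300. GPA1, which encodes a G protein alpha subunit, is known under a different locus number and was not analysed here, so the genotype rests on the labels. The study set the transcriptomes of both genotypes under ABA beside each other.

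All groups were unreplicated, and this small number of arrays limits the precision. The values are linear probe-set intensities, and array medians lay between 42.8 and 48.0. Intensities below 19.2, the 30th percentile over all arrays, were raised to that floor before log2 was taken. The shoot genes RCA, LHCB4.1 and LHCB4.2 read from 2258.1 to 5525.4 and the root genes EXPA7 and EXPA18 from 42.4 to 143 over the arrays, so markers of shoot and root were both above the floor on every array.

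Both genes were dim without ABA and among the brightest few percent of probe sets with it, in gpa1 as in WS. AT2G37870 had an intensity of 873.8 with ABA, against 34.4 without ABA, in gpa1. In WS it had 996.8 with ABA, against 29.4 without ABA. Both ABA arrays were therefore far above both control arrays, which follows from the selection on this increase. No value was at the floor.

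The increase of AT2G37870 with ABA was 25.4-fold in gpa1 and 33.9-fold in WS. On the log2 scale these are changes of 4.67 in gpa1 and 5.08 in WS, with an average of 4.88. Its position on the array moved accordingly: the probe set was brighter than 97.2% of all analysed probe sets on the gpa1 ABA array, against 41.9% on the gpa1 control array. The same shares were 97.8% on the WS ABA array, against 37.6% on the WS control array. By the size of its log2 change AT2G37870 ranked 24th in gpa1 and 13th in WS among 13647 tested probe sets.

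AT4G33550 had an intensity of 1034.9 with ABA, against 36.2 without ABA, in gpa1. In WS it had 847.3 with ABA, against 54.0 without ABA. Both ABA values were again far above both control values, which also follows from the selection. The values on the 2 control arrays lay further apart in proportion than those on the 2 ABA arrays.

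For AT4G33550 the increase with ABA was 28.6-fold in gpa1 and 15.7-fold in WS. The log2 changes were 4.84 in gpa1 and 3.97 in WS, with an average of 4.40. The probe set was brighter than 97.7% of the analysed probe sets on the gpa1 ABA array, against 43.2% on the gpa1 control array. In WS it was brighter than 97.2% on the ABA array, against 53.2% on the control array. AT4G33550 ranked 18th in gpa1 and 44th in WS by its log2 change. RefSeq lists 2 transcripts for AT4G33550 and 1 for AT2G37870, and the probe set of AT4G33550 gives 1 value for both of its transcripts.

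**Figure D1:**
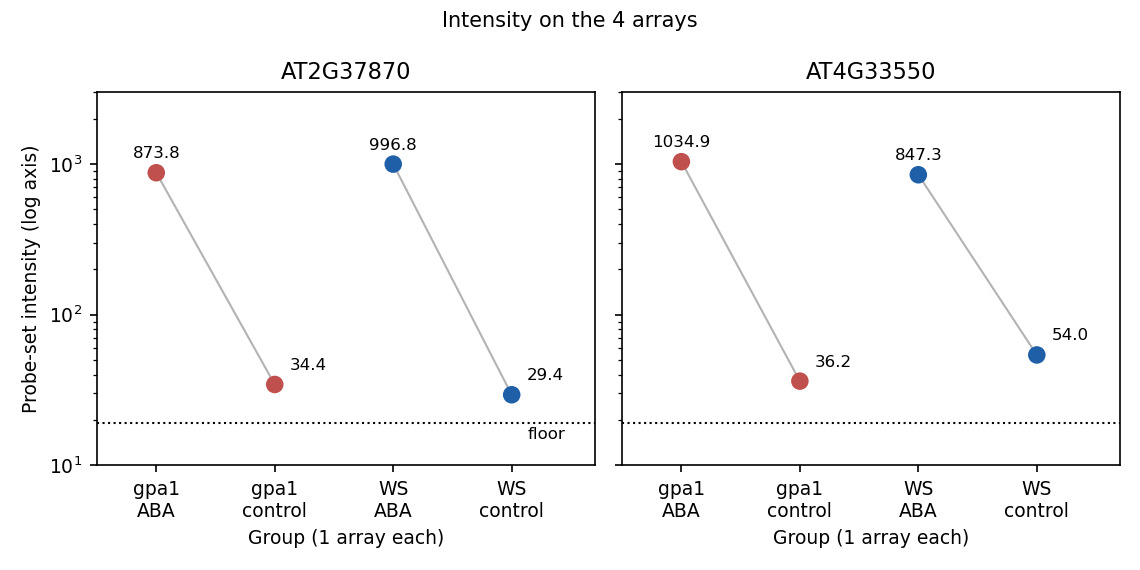
Intensity of AT2G37870 (left) and AT4G33550 (right) on each of the 4 arrays, on a log axis, with gpa1 in red, WS in blue and a grey line joining the ABA and control arrays of a genotype. Each point is 1 array, the dotted line is the floor of 19.2, and all ABA values lie between 847.3 and 1034.9 while all control values lie between 29.4 and 54.0.

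Both genes were at least 2-fold higher with ABA in both genotypes, which held for 6.49% of the tested probe sets. The median log2 change over all tested probe sets was -0.16 in each genotype, so the changes of AT2G37870 and AT4G33550 stood against a slight shift of the arrays in the other direction. In whole plants, more RNA per cell and more cells that express a gene cannot be told apart. Neither the tissue nor the cell type in which the transcripts accumulated was measured.

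The order of the genotypes differed between the genes. For AT2G37870 the log2 change in gpa1 minus that in WS was -0.42, a fold in gpa1 that was 0.749 times the fold in WS. For AT4G33550 the same difference was 0.87, a fold in gpa1 that was 1.82 times the fold in WS. A difference of responses has no test with 1 array per group.

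The size of these differences can be read against all tested probe sets. A difference of responses larger in size than that of AT2G37870 was found for 28.2% of them, and one larger than that of AT4G33550 for 4.97%. Among the 46 tested probe sets that were at least 8-fold higher with ABA in both genotypes and above the floor on all arrays, to which both genes belong, the median size of the difference was 0.27 and the 90th percentile was 0.84. AT2G37870 lay between the median and the 90th percentile of these 46, and AT4G33550 lay just above the 90th percentile.

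**Figure D2:**
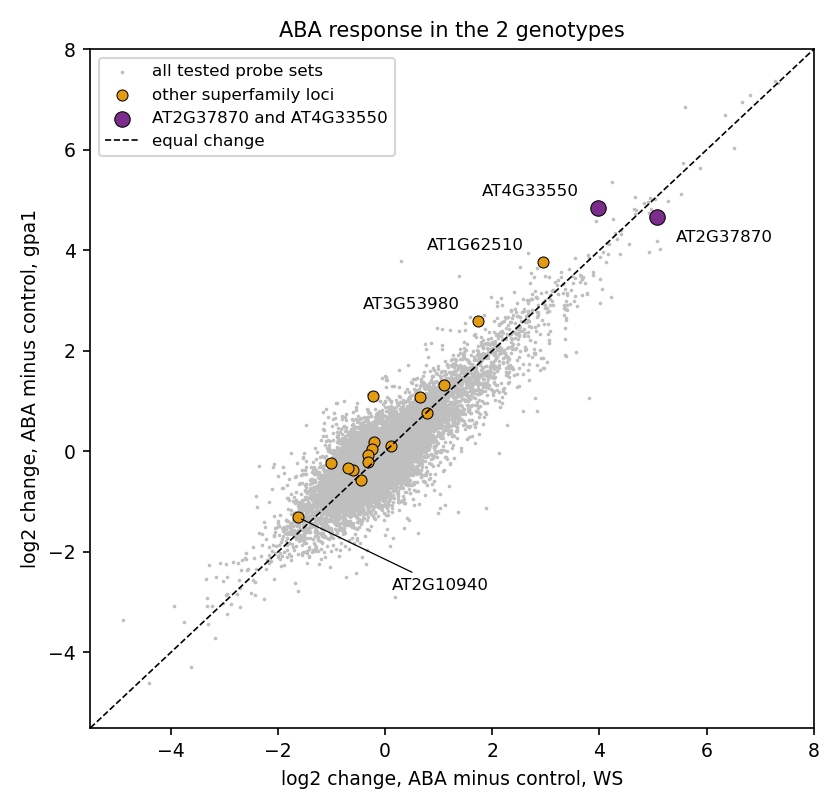
Log2 change with ABA in gpa1 (vertical axis) against that in WS (horizontal axis) for all 13647 tested probe sets in grey, the 16 other tested loci of the superfamily in orange, and AT2G37870 and AT4G33550 in purple, with the dashed line where both changes are equal. The response of gpa1 minus WS is 0.87 for AT4G33550, above the line, and -0.42 for AT2G37870, below it.

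Much of the difference for AT4G33550 sat in the level without ABA. Its control intensity was 36.2 in gpa1, against 54.0 in WS, a log2 difference of -0.58. With ABA the sign was the other, 1034.9 in gpa1 against 847.3 in WS, a log2 difference of 0.29. On the linear scale AT4G33550 gained 998.7 intensity units with ABA in gpa1 and 793.3 in WS.

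AT2G37870 showed the reverse order with smaller differences. Without ABA it read 34.4 in gpa1 against 29.4 in WS, a log2 difference of 0.23. With ABA it read 873.8 in gpa1 against 996.8 in WS, a log2 difference of -0.19. Its gain was 839.4 intensity units in gpa1 and 967.4 in WS.

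For the rest level of AT4G33550, 7.28% of the tested probe sets had a larger difference between the control arrays, and for AT2G37870 this held for 39.7%. Between the ABA arrays the shares were 35.3% for AT4G33550 and 52.5% for AT2G37870. The control values of both genes were within 3-fold of the floor, between 1.53 and 2.81 times its intensity, where a few intensity units make a visible difference in fold. A change of sign between the control and the ABA arrays, as seen for both genes, occurred in 45.3% of all tested probe sets.

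The averaged genotype difference was not used to choose the genes and was tested with limma across all tested probe sets. It was 0.02 ± 0.16 (SE) on the log2 scale for AT2G37870, gpa1 minus WS, with a 95% interval from -0.29 to 0.33 and a limma adjusted p of 0.993. For AT4G33550 it was -0.14 ± 0.15 (SE), with an interval from -0.44 to 0.16 and a limma adjusted p of 0.872. Neither gene passed at 0.05, where 2.9% of the tested probe sets did. A p above the threshold does not show equal levels, and the intervals rest on spread borrowed from other probe sets, so they leave out the variation between plants of a genotype. The average of a negative and a positive difference is small by construction for both genes, and this test does not address whether the genotypes differ within a treatment.

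Several readings of the arrays moved with the contrast in which AT4G33550 stood out. The geometric mean of 9 bacterial and phage spike-in probe sets was 641 with ABA against 456 without in gpa1, and 395 with ABA against 687 without in WS, which is a log2 response of gpa1 minus WS of 1.29. The 25S ribosomal RNA probe set had a corresponding difference of 1.44. The actin 3-prime over 5-prime ratio, a sign of RNA quality, was 6.76 with ABA against 8.71 without in gpa1, and 8.55 with ABA against 6.09 without in WS, a difference of -0.86. The 5 shoot and root markers had the sign of the spike-ins. RCA, a shoot gene, read 5173.2 with ABA against 4330.1 without in gpa1, and 4082.4 with ABA against 5487.2 without in WS. EXPA7, a root hair gene, read 70.2 with ABA against 48.1 without in gpa1, and 42.4 with ABA against 80.3 without in WS. LHCB4.1, LHCB4.2 and EXPA18 also had the higher ratio of ABA to control in gpa1. The part of these array readings in the differences of AT4G33550 (0.87) and AT2G37870 (-0.42) was not tested.

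**Figure D3:**
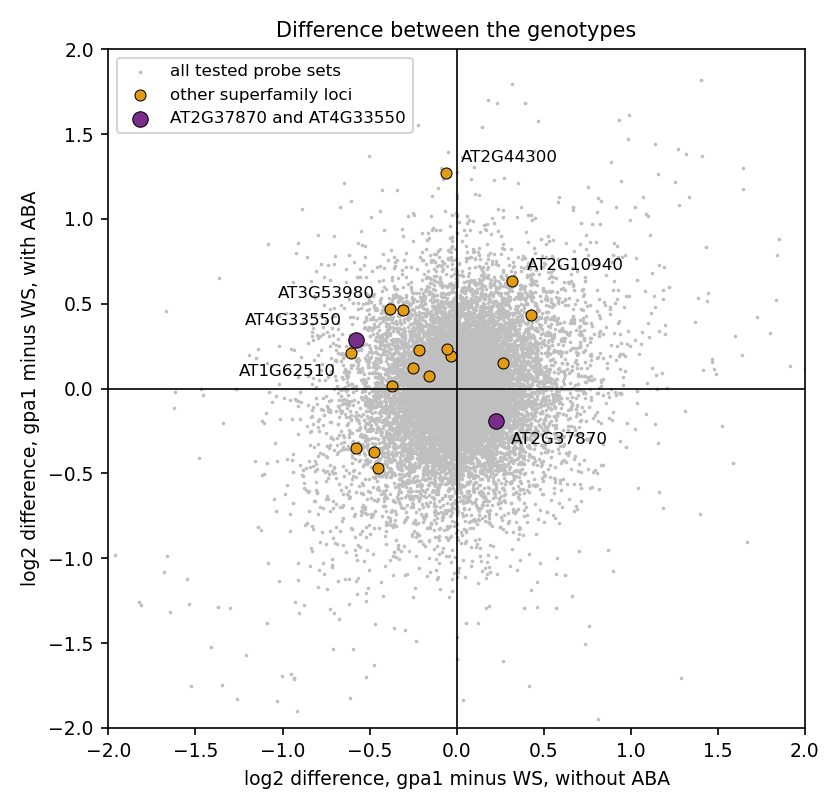
Log2 difference of gpa1 minus WS with ABA (vertical axis) against that without ABA (horizontal axis), for all tested probe sets in grey, the other tested superfamily loci in orange, and AT2G37870 and AT4G33550 in purple; 31 probe sets lie beyond the axes. AT4G33550 lies in the upper left at -0.58 and 0.29, near AT1G62510 and AT3G53980, and AT2G37870 lies in the lower right at 0.23 and -0.19.

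The transcripts with the most similar profiles were sought among the 7285 tested probe sets with 1 named gene. Likeness was the Euclidean distance between the 4 log2 intensities of 2 probe sets, each centred on its own mean over the arrays, so it is dominated by the size of the ABA change and describes 4 arrays only. For AT2G37870 the nearest was PUB19, a U-box ubiquitin ligase, at a distance of 0.19, with a 28.3-fold increase in gpa1 and 31.2-fold in WS. LTI30, a dehydrin, followed at 0.26 with 31.5-fold in gpa1 and 38.8-fold in WS. COR15A, a cold-regulated chloroplast protein that protects membranes in freezing, lay at 0.28, and its increases of at least 32.8-fold in gpa1 and at least 30.7-fold in WS are bounds, since both control values were at the floor. AT1G49450 lay at 0.34 and AT2G41190 at 0.53.

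AT4G33550 had its nearest profile in AT1G05340, at a distance of 0.34. AT1G05340 read 1253.6 with ABA against 52.5 without in gpa1, and 1345.9 with ABA against 88.0 without in WS, so it shared the lower control value in gpa1 and the larger fold there, 23.9-fold in gpa1 and 15.3-fold in WS. AT5G66780, AT1G49450, AT1G24600 and EXPA16, an expansin of the cell wall, followed at distances from 0.45 to 0.62; the control values of AT5G66780 and AT1G24600 lay at the floor in gpa1 and in WS, and that of EXPA16 did so in gpa1. AT1G49450, at the floor in gpa1 control, was thus among the nearest 5 of both genes. AT2G37870 and AT4G33550 lay 0.81 apart. AT4G33550 was the 9th nearest profile of AT2G37870, and AT2G37870 the 12th nearest of AT4G33550.

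The neighbours on the chromosomes were looked up in the gene order of RefSeq. AT4G33540, directly before AT4G33550 on chromosome 4, read 377.5 with ABA against 91.6 without in gpa1, and 336.8 with ABA against 79.6 without in WS. It rose 4.12-fold in gpa1 and 4.23-fold in WS, with a limma adjusted p of 1.09e-26 for the averaged change. This p rests on spread borrowed from other probe sets and leaves out the variation between plants. AT4G33560, directly after AT4G33550, read between 6.5 and 19.9 and was too dim to be tested. The adjacent genes AT4G33540 and AT4G33550 were therefore both higher with ABA, with AT4G33540 about equally so in both genotypes.

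For AT2G37870 on chromosome 2, no directly adjacent gene could be tested. AT2G37880, directly after it, read 28.1 in gpa1 control and between 6.8 and 7.8 on the other arrays, and was too dim to be tested. AT2G37840, the nearest named gene before AT2G37870 with 1 gene between them, has 2 probe sets. Their averaged log2 changes with ABA were 0.02 and -0.33, with limma adjusted p-values of 0.959 and 0.308, so neither passed.

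The wider superfamily gives the setting of the 2 genes. A list of 93 loci of lipid-transfer, hybrid proline-rich and 2S albumin proteins, drawn up from general knowledge and enlarged by 3 loci through the annotation's text, had 38 named probe sets besides AT2G37870 and AT4G33550. Of these 38, 16 were bright enough to be tested, and 9 of the 22 others were above the floor on no array. The lipid-transfer proteins LTP1 to LTP6, DIR1, AZI1 and the seed albumins SESA1 to SESA5 were not analysed here, because no probe set carried their name alone.

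With ABA, 5 of the 16 rose and 5 fell by limma at an adjusted p under 0.05, where 17.1% of all tested probe sets were called higher and 25.7% lower. The SE and p-values of these loci rest on spread borrowed from other probe sets, so they leave out the variation between plants. The median averaged change of the 16 was -0.05, against -0.16 over all tested probe sets. At least 2-fold higher in both genotypes were 3 of the 16, and at least 2-fold lower in both was 1. By these measures 6.49% of all tested probe sets were higher and 3.8% lower. The 2 genes described here were selected for their increase and are not among the 16.

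AT1G62510 came nearest to them in size. It read 3645.4 with ABA against 269.5 without in gpa1, and 3156.7 with ABA against 410.7 without in WS. It rose 13.5-fold in gpa1 and 7.69-fold in WS, and its averaged log2 change was 3.35 ± 0.17 (SE; limma adjusted p = 5.51e-44). Like AT4G33550 it was lower in gpa1 than in WS without ABA and higher with ABA, with log2 differences of -0.61 and 0.21. This order was not limited to strong risers. It was found in 10 of the 16 other loci, including loci called lower with ABA, and in 21.9% of all tested probe sets.

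AT3G53980 showed the same order of arrays. It read 846.0 with ABA against 140.2 without in gpa1, and 610.7 with ABA against 182.8 without in WS. It rose 6.03-fold in gpa1 and 3.34-fold in WS, and its averaged log2 change was 2.17 ± 0.14 (SE; limma adjusted p = 2.64e-31). The 2 changes behind this average, 2.59 in gpa1 and 1.74 in WS, lay further apart than this SE. The log2 response of gpa1 minus WS was 0.85 for AT3G53980, 0.82 for AT1G62510 and 0.87 for AT4G33550.

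The other risers were smaller. AT3G18280 rose 2.49-fold in gpa1 and 2.13-fold in WS, AT1G48750 by 2.13-fold and 1.56-fold in the same order, and AT2G48130 by 1.70-fold and 1.72-fold. With the treatment fitted alone and any 1 of the 4 arrays left out, 1 treatment is a single array, assumed to vary like the other treatment and like other probe sets, and the genotypes are unbalanced. In these fits, which are no replicate check, AT1G62510, AT3G53980 and AT3G18280 passed in all 4, and AT1G48750 and AT2G48130 in none.

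Among those that fell, AT2G10940 had the largest change. It read 370.3 with ABA against 919.2 without in gpa1, and 238.3 with ABA against 737.6 without in WS, a fall of 2.48-fold in gpa1 and 3.10-fold in WS and an averaged log2 change of -1.47 ± 0.14 (SE; limma adjusted p = 3.44e-18). AT2G45180, AT5G05960, AT2G27130 and AT5G48490 had averaged changes from -0.61 to -0.49. With the treatment fitted alone and 1 array left out, AT2G10940 passed in 2 of the 4 fits, without gpa1 ABA and without WS control, and the other 4 in none. The tested part of the superfamily thus held loci that were higher and loci that were lower with ABA. AT2G37870 and AT4G33550 stood at its upper end, but they had been selected for this increase.

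**Figure D4:**
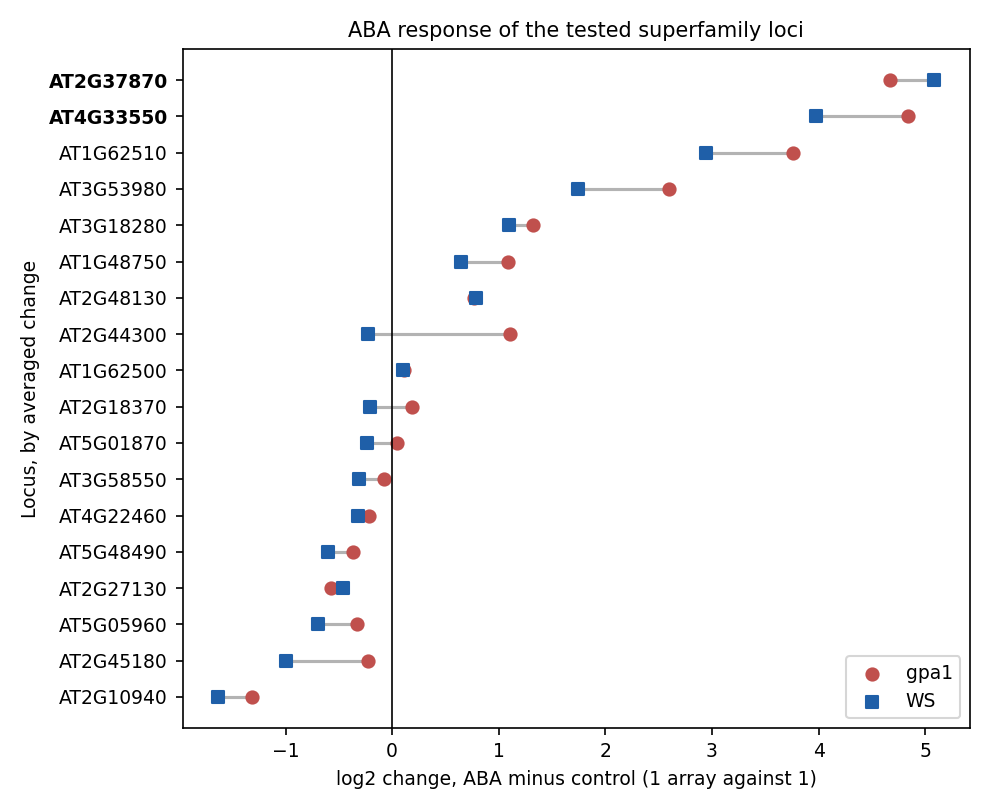
Log2 change with ABA in gpa1 (red circles) and in WS (blue squares) for the 18 tested loci of the superfamily, ordered by the averaged change, with AT2G37870 and AT4G33550 in bold. The changes run from -1.63 for AT2G10940 in WS to 5.08 for AT2G37870 in WS, and the red circle lies to the right of the blue square for AT4G33550 and 14 of the 16 other loci.

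Between the genotypes, 1 of the 16 passed with limma, where 2.9% of all tested probe sets did, so the count is near that background. AT2G10940 was higher in gpa1 by 0.48 ± 0.14 (SE) on the log2 scale, averaged over the treatments, with a limma adjusted p of 0.0396, and it lost this call without the intensity trend (adjusted p = 0.392) and with the genotype fitted alone (adjusted p = 1.00). The averaged differences of the 16 ran from -0.46 to 0.61, a range that holds the values of AT2G37870 and AT4G33550.

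The log2 response was higher in gpa1 than in WS for 14 of the 16 loci, as it was for AT4G33550, and AT2G37870 went the other way. This count leaves out the 22 named loci that were not tested. The 2 of those above the floor on all arrays had differences of -0.95 (AT1G36150) and 0.24 (AT3G07450). Over all tested probe sets 48.9% had the higher response in gpa1. With the tested probe sets divided into 5 equal classes of mean intensity, a division chosen after seeing the data, the share was 59.0% in the brightest class, to which 11 of the 16 loci belong. AT2G37870 and AT4G33550 belong to the next class, where the share was the lowest of the 5. After quantile normalization the number was 15 of 16, with a share of 52.1% in the brightest class and 50.2% in the next. All 16 loci were read on the same 4 arrays as the spike-in and ribosomal RNA probe sets above, whose part in this count was not tested.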

How the data were processed

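Probe-set intensities were deposited by the authors on a linear scale for 4 arrays, each with a 2% trimmed mean of 100; for the program that summarised the probes, the sources used here give no name. AT2G37870, AT4G33550 and all lists were chosen with earlier results of these data known. Of 22810 probe sets, 64 controls were left out. Intensities were rescaled to a 2% trimmed mean of 100, raised to a floor of 19.2 (30th percentile) and put on the log2 scale, and tests ran on the 13647 probe sets whose mean log2 value exceeded its 40th percentile. Averaged ABA and genotype effects came from 1 additive limma 3.58.1 model (R 4.3.3) with an intensity trend and Benjamini-Hochberg adjustment at 0.05. The model has 1 residual degree of freedom, takes the departure from additivity as its error and relies on a median of 171 prior degrees of freedom borrowed from other probe sets. Its p-values therefore do not measure the spread between biological replicates. The script was tested on simulated data.

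Probe sets were named from the platform annotation and RefSeq (TAIR10.1), which was used for names and gene order only: 13513 had 1 gene, 503 several and 8730 none here. The genes named are AT2G37870 and AT4G33550, the 5 nearest profiles of each, the 5 highest and 5 lowest averaged ABA changes of the superfamily, those called between genotypes, and the nearest named neighbours. Shoot and root genes are named as a tissue check. Outside this planned choice, the tested superfamily loci with opposite ABA directions in gpa1 and WS are named as well. A planned choice by protein identity was not made, since no protein sequences were at hand. Alternatives were median centring, quantile normalization, floors at the 15th and 45th percentiles, no filter, a filter at the 60th percentile, no trend, each factor alone, and each array left out.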

Additional observations from a re-analysis of the deposited data

Results flagged for a closer look

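Among the tested loci named here, the ABA change had opposite directions in gpa1 and WS for 3 loci of the superfamily and for 1 probe set of a neighbour. None of these differences was tested, since each group holds 1 array. The share of all tested probe sets with opposite directions was not counted, so these counts have no background and are not read as a trait of the superfamily. AT2G44300, of the superfamily, read 118.6 with ABA against 55 without in gpa1, and 49.1 with ABA against 57.3 without in WS, a log2 response of gpa1 minus WS of 1.33. The same difference was 0.39 for AT2G18370 (LTP8) and 0.29 for AT5G01870 (LTP10), both with an increase in gpa1 and a decrease in WS. For AT2G37840, the neighbour of AT2G37870, it was -0.11 with 1 of its 2 probe sets, while the other had log2 changes of -0.28 in gpa1 and -0.37 in WS. The averaged log2 changes were -0.01 for AT2G18370, -0.10 for AT5G01870 and 0.02 for the AT2G37840 probe set with opposite directions. Changes this near 0 take opposite signs through small differences.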

How the results depend on the processing

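With 1 array per group, no value has a replicate error, and the control levels of AT2G37870 and AT4G33550 lie near the floor. No paired analysis was possible because each group holds 1 array. Over the 4 alternatives of scaling and floor, the log2 change of AT2G37870 with ABA ranged from 4.55 to 4.82 in gpa1 and from 4.74 to 5.23 in WS. That of AT4G33550 ranged from 4.80 to 4.99 in gpa1 and from 3.97 to 4.11 in WS. Over the same alternatives the log2 response of gpa1 minus WS ranged from -0.52 to -0.19 for AT2G37870 and from 0.80 to 0.88 for AT4G33550. With the floor at the 45th percentile, which lies above the control values of AT2G37870, its log2 change in WS was 4.74. Its response difference was then -0.19 and its averaged genotype difference -0.10. The genotype adjusted p (limma) ranged from 0.953 to 1.00 for AT2G37870 and from 0.836 to 1.00 for AT4G33550. With genotype fitted alone and 1 array left out, treatment is no longer balanced: the difference ranged from -2.52 to 2.56 for AT2G37870 (-2.32 without gpa1 ABA, -2.52 without WS control) and from -2.56 to 2.27 for AT4G33550 (2.27 without gpa1 control, 1.84 without WS ABA). For AT2G10940 it ranged from -0.34 to 1.29, with -0.18 without gpa1 control and -0.34 without WS ABA. Of the 16 other loci, the 5 called higher with ABA became 0 with no filter and 3 with an array left out. The 5 called lower became 2 with median centring, 0 with no filter, 2 with treatment alone and 0 to 1 with an array left out. The 1 called higher in gpa1 became 0 with no filter, no trend, genotype alone or an array left out. The 0 called lower in gpa1 became 1 with quantile normalization, 2 with the 45th-percentile floor, and 1 with the 60th-percentile filter. With no filter, probe sets at the floor on all arrays enter with no variance. The cause of the changes in these counts was not tested under any setting.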
